A study of Mus musculus with 4 samples.

Results

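The 41 genes described here encode the DNA replication machinery, and were taken by gene symbol from a list that covers origin licensing, the replicative helicase and its activators, the polymerases, the sliding clamp and its loader, single-strand binding, Okazaki fragment joining, chromatin assembly and the S-phase cyclins. All 41 were found among the 48795 genes of the deposited table. Expression was measured by RNA sequencing of telencephalon, the front part of the embryonic brain, dissected at embryonic day 14 from C57BL/6 mice. Ctcf-null embryos carried floxed Ctcf alleles and a Nestin-Cre transgene, whose Nestin promoter drives the recombinase in neural progenitors, and control embryos carried floxed Ctcf alleles with no Cre named. Each group had 2 libraries, and the study describes the 4 libraries as 2 pairs, each with 1 Ctcf-null and 1 control library. The labels do not say what the members of a pair share, nor whether each library is 1 embryo or a pool, so the tests take in no more than the variation among these libraries, which may be partly technical.

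Ctcf encodes a DNA-binding protein with zinc fingers that helps to fold chromatin into loops. Replication begins when the origin recognition complex, Cdc6 and Cdt1 load the ring of Mcm2 to Mcm7 onto DNA in G1. In S phase, Cdc45 and the GINS complex turn that ring into an active helicase, polymerase alpha-primase lays down primers, and polymerases delta and epsilon extend them on the sliding clamp Pcna, which the replication factor C complex loads. In the embryonic telencephalon these genes are used by dividing progenitors, whereas newborn neurons have left the cell cycle, and many of the genes are known targets of E2F transcription factors.

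The targeted gene had normalised read counts of 38.9 and 62.0 in the Ctcf-null libraries, against 436.7 and 1133 in the control libraries. Ctcf fell by 3.81 on the log2 scale (SE 0.16, limma adjusted p = 7.99e-12). Depth was 43812558 and 25519331 reads in the Ctcf-null libraries, against 41294659 and 27619441 reads in the control libraries. The 10 most abundant genes took 21.9% and 8.37% of the reads in the Ctcf-null libraries, against 26.03% and 8.82% in the control libraries, so the first pair stood apart from the second in both groups.

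The promoters of the members whose fall passed the threshold both in limma and in edgeR are shown first, for the 6 with the largest change, because E2F and CCAAT motifs are common in the promoters of S-phase genes. Those of Orc1 and Rfc1 are shown beside them as the members with a promoter sequence at hand and among the smallest changes. Each is RefSeq sequence of GRCm38.p6 written 5′ to 3′ on the gene's strand, running from 250 bases before to 50 bases after the start. Capitals mark matches on either strand to the E2F forms TTTGGCGC, TTTCCCGC, TTTGCCGC and TTTCGCGC and to CCAAT.
Rfc3 (chr5:151651159-151651458, minus strand): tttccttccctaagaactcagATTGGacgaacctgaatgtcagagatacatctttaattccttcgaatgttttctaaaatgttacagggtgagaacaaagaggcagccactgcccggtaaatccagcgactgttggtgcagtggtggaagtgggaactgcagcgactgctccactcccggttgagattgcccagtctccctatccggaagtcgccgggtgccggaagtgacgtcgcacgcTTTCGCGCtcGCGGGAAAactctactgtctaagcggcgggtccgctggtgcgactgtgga
Chaf1b (chr16:93883651-93883950, plus strand): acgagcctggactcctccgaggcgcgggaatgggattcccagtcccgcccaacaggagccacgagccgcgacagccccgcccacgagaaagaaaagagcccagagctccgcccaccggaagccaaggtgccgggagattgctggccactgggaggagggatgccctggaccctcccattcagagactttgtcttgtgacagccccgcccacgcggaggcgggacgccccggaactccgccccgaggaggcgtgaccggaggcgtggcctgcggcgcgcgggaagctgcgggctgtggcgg
Rfc4 (chr16:23127681-23127980, minus strand): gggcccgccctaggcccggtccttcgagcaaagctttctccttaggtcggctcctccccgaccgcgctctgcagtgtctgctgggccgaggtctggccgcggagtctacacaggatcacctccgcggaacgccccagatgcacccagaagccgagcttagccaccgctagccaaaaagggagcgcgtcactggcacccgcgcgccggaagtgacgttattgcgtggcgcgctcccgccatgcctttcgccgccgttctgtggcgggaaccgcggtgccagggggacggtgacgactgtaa
Rpa2 (chr4:132768110-132768409, plus strand): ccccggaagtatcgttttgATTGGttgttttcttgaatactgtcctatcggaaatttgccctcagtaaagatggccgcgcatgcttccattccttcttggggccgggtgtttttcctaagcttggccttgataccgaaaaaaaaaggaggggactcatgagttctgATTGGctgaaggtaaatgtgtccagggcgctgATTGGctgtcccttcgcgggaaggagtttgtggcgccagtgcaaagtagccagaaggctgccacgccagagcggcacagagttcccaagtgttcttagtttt
Rpa3 (chr6:8259092-8259391, minus strand): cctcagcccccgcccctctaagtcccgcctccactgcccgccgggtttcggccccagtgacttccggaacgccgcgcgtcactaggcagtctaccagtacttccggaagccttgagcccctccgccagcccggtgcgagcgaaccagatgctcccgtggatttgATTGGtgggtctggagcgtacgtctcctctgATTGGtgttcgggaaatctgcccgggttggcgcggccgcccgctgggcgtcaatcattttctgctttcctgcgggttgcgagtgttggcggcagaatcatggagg
Mcm7 (chr5:138171834-138172133, minus strand): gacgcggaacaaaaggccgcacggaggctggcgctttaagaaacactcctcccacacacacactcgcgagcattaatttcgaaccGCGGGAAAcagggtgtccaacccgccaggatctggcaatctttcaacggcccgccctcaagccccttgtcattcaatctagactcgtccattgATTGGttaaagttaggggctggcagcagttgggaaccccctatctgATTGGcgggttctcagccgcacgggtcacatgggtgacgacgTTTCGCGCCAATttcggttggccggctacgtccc
Orc1 (chr4:108579204-108579503, plus strand): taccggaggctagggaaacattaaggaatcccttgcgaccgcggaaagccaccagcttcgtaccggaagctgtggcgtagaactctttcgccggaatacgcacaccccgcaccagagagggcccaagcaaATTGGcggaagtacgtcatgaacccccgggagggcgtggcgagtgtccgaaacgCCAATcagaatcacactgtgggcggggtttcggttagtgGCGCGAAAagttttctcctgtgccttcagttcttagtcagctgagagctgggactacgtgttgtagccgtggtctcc
Rfc1 (chr5:65335590-65335889, minus strand): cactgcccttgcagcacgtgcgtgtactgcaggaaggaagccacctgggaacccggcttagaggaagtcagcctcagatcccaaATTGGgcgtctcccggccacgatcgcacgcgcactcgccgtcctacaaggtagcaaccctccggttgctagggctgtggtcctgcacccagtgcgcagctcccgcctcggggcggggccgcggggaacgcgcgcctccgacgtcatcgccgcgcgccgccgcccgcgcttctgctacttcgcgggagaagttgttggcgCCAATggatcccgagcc

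The first of these windows, that of Rfc3, held an E2F form 10 bases before the start and another at the start, and the Mcm7 window held 2 E2F forms and 3 CCAAT matches, of which 1 E2F form and 1 CCAAT overlapped. The Chaf1b and Rfc4 windows held neither motif, and the windows of Rpa2 and Rpa3 held only CCAAT, with 3 and 2 matches. A window was at hand for 32 of the 41 members. Some members had several starts, giving 37 windows, and a motif was counted for a gene if any of its windows held it. The printed Mcm7 window is its first and lies within the gene span given below. An E2F form was present in 14 of these 32 (43.8%), against 4.15% of the 12967 genes tested for expression that had a window. It was found in 3 of the 12 members with a window that fell (Rfc3, Mcm7 and Uhrf1) and in 11 of the 20 that did not pass the test. In Uhrf1 and Lig1 the E2F form lay only in the second window, which is not printed. CCAAT was present in 21 of 32 members (65.6%), against 42.6% of the tested genes, and in 10 of the 12 that fell and 11 of the 20 that did not pass. The cell cycle element TTTGAA was present in 4 of 32 members (12.5%), against 15.0% of the tested genes. Among the windows of the members, 4 pairs of matches overlapped: 2 E2F forms on opposite strands in Mcm5 and in Mcm6, the pair in Mcm7, and 2 CCAAT matches in Uhrf1.

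Of the 41 members, 13 fell and 0 rose in Ctcf-null telencephalon (limma with the pair as a block, adjusted p under 0.05). All 41 had passed the filter on low counts. Among all 21865 genes tested, 10.1% fell and 3.69% rose, and among the 11836 genes at least as abundant as the lowest member 16.5% fell in limma and 11.2% in edgeR. The median log2 fold change of the members was -0.21, against -0.07 over all genes tested. Over the genes at least as abundant as the lowest member it was -0.11. The median of the members was -0.27 in pair 1 and -0.15 in pair 2. Over all genes tested it was -0.06 in pair 1 and -0.08 in pair 2. Over the genes at least as abundant as the lowest member it was -0.09 and -0.12, so in pair 2 the members lay close to genes of like abundance. The falls were small: the largest, of Rfc3, was 39.2%, and 8 of the 13 were below 20%. In bulk tissue, fewer cycling cells and less RNA per cycling cell cannot be told apart.

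Members lower in the Ctcf-null library of both pairs numbered 27 of 41 (65.9%), where 43.1% of all tested genes were lower in both. Among genes at least as abundant as the lowest member, 55.6% were lower in both pairs and 18.6% higher in both. Gmnn, Mcm6 and Pola1 were higher in both pairs, as were 24.5% of all genes, and none of these 3 passed the test. Both Ctcf-null libraries lay below both controls for 5 members (Rfc3, Mcm7, Cdc6, Mcm3 and Ccne2), as for 7.67% of all genes tested. For the other members the Ctcf-null and control values overlapped, and the comparison rests on the difference within each pair.

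The number of calls depended on how the libraries were scaled and on the test used. With edgeR's TMM scaling of the recovered reads, 8 members fell (Rfc3, Chaf1b, Rfc4, Rpa2, Rpa3, Mcm7, Prim1 and Pcna) and 0 rose, against 7.14% and 4.83% of all genes. The median of the 41 members was then -0.16, against -0.02 over all genes and -0.05 over genes at least as abundant as the lowest member. In a centred fit, each Ctcf-null library was shifted so that its median log2 difference from its paired control was 0 over all genes tested. After this centring 6 members fell, against 4.64% of all genes and 7.32% of genes at least as abundant as the lowest member. With upper-quartile scaling 4 fell, against 4.74% of all genes, and with DESeq2 3 fell, against 2.49%. With DESeq2 the median of the members was still -0.19, but standard errors were larger, such as 0.12 against 0.08 in limma for Rfc3. Over all genes DESeq2 called fewer in both directions, with 545 lower and 290 higher. Rfc3, Chaf1b and Rfc4 fell under all 11 settings with the pair as a block, and each of the other 10 fell under 4 to 10 of them. Over all genes, 806 rose and 2210 fell on the authors' scale, and 1056 rose and 1562 fell with TMM. After centring 884 rose and 1015 fell, and with upper-quartile scaling 1325 rose and 1036 fell. Upper-quartile scaling moved the median log2 fold change of all genes up by 0.10, to 0.03. Without the block 0 members and 0.0% of all genes passed in limma and in edgeR; 171 genes in limma and 172 in edgeR had an unadjusted p under 0.05, with 0 members among them.

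**Figure D1:**
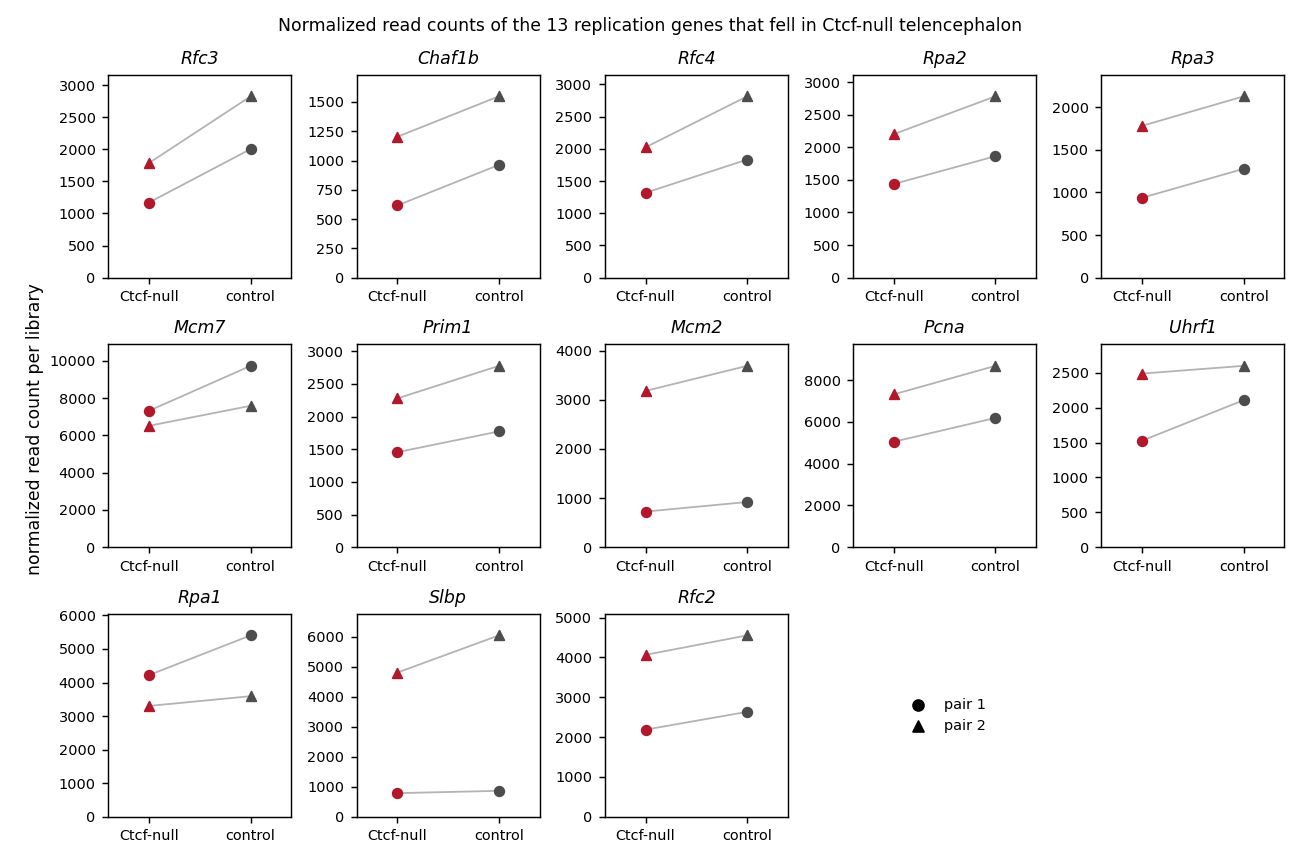
Normalised read count (linear axis from 0) of each of the 13 members that fell, in the Ctcf-null and control library of pair 1 and of pair 2, joined by a line within each pair. In every panel the Ctcf-null library lies below its control in both pairs, while for 12 of the 13, all but Rfc3, the 2 controls differ by more than the genotypes do on the log2 scale.

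Origin licensing genes did not pass the test in any of 5 cases. Cdt1, the licensing factor that brings the MCM ring to origins, had the largest change of this group and counted 91.9 and 797.0 in Ctcf-null libraries, against 113.0 and 919.3 in controls (log2 fold change -0.25, SE 0.12, adjusted p = 0.184). The 2 pairs differed far more than the genotypes, so the groups overlapped. Cdc6, which works with Cdt1 at the origin, had 866.2 and 820.1 in Ctcf-null libraries, against 1106 and 908.1 in controls, with no overlap between the groups, and a log2 fold change of -0.25 (adjusted p = 0.0703). Geminin (Gmnn), which inhibits Cdt1, was at 0.02, Orc1 at -0.01 and Orc6 at -0.16 on the log2 scale, the first of these 3 being higher in both pairs.

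In the MCM helicase ring, 2 of 6 subunits fell in limma, against 10.1% of all genes. Only Mcm7 also fell in edgeR and after centring. Mcm7, at chr5:138164583-138172422 on the minus strand (mm10), had 7324 and 6519 counts in Ctcf-null libraries, against 9737 and 7591 in controls (log2 fold change -0.32, SE 0.07, adjusted p = 0.00303). Both Ctcf-null values lay below both controls. Mcm2, at chr6:88883474-88898780 on the minus strand, had 725.5 and 3182 counts in Ctcf-null libraries, against 920.6 and 3692 in controls (log2 fold change -0.28, SE 0.08, adjusted p = 0.0201). It was 4.39-fold higher in the second library than in the first among Ctcf-null libraries and 4.01-fold among controls. Mcm3 had 3176 and 3198 in Ctcf-null libraries, against 4065 and 3281 in controls (log2 fold change -0.20, adjusted p = 0.0995). Mcm5 had 4117 and 3543 in Ctcf-null libraries, against 5202 and 3483 in controls (log2 fold change -0.16, adjusted p = 0.207). Mcm4 had 2854 and 2489 in Ctcf-null libraries, against 3442 and 2392 in controls (log2 fold change -0.11, adjusted p = 0.423). For Mcm3, Mcm5 and Mcm4 the change was -0.36, -0.34 and -0.27 in pair 1, and -0.04, 0.02 and 0.06 in pair 2. Mcm6 went the other way, with 2168 and 5909 in Ctcf-null libraries, against 1995 and 5453 in controls, a log2 fold change of 0.12 in both pairs that missed the threshold (adjusted p = 0.275).

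None of the 6 helicase activators passed. Cdc45, which with GINS completes the active helicase, had 771.5 and 1158 counts in Ctcf-null libraries, against 934.8 and 1288 in controls (log2 fold change -0.22, SE 0.08, adjusted p = 0.101). The other 5, Gins1 to Gins4 and Mcm10, lay between -0.21 and -0.07 on the log2 scale. Neither of the S-phase cyclins passed. Ccne1, the cyclin that drives Cdk2 at the start of S phase, had 103.9 and 353.5 counts in Ctcf-null libraries, against 113.0 and 460.3 in controls (log2 fold change -0.25, SE 0.14, adjusted p = 0.257). Ccne2 was at -0.19 with non-overlapping groups.

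Among the polymerases, 1 of 7 subunits fell in limma, against 10.1% of all genes. Prim1, the catalytic primase subunit at chr10:128015168-128030037, had 1454 and 2277 counts in Ctcf-null libraries, against 1772 and 2775 in controls. Its log2 fold change was -0.29 in each pair (SE 0.07, adjusted p = 0.0129), and it fell in edgeR but not after centring. Its partners Prim2 (-0.10), Pola1 (0.17) and Pola2 (0.10) did not pass, and Pola2 moved in opposite directions in the pairs, by 0.33 in the first and -0.13 in the second. Pole2, a subunit of the leading strand polymerase epsilon, had 277.2 and 383.9 in Ctcf-null libraries, against 307.8 and 409.0 in controls (log2 fold change -0.12, SE 0.11, adjusted p = 0.543). The catalytic subunits Pole and Pold1 were at -0.05 and -0.06.

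The clamp and its loader fell in 4 of 6 genes in limma, against 10.1% of all genes. In edgeR 3 of the 6 fell (against 7.14% of all genes), and after centring 2 fell (against 4.64%). Rfc3, a small subunit of the clamp loader at chr5:151642756-151651242 on the minus strand, had 1171 and 1786 counts in Ctcf-null libraries, against 2004 and 2826 in controls. Both Ctcf-null libraries lay below both controls, and the log2 fold change was -0.72 (95% interval -0.88 to -0.56, adjusted p = 1.74e-06). Rfc4, at chr16:23113943-23127737 on the minus strand, had 1317 and 2023 in Ctcf-null libraries, against 1833 and 2814 in controls (log2 fold change -0.48, SE 0.07, adjusted p = 1.75e-04). Within each pair the change was -0.48. Rfc2, at chr5:134581366-134601805 on the plus strand, had 2186 and 4064 in Ctcf-null libraries, against 2634 and 4553 in controls (log2 fold change -0.22, SE 0.07, adjusted p = 0.0434) and fell under 5 of the 11 settings. Pcna, the clamp itself, at chr2:132249162-132253314 on the minus strand, had 5048 and 7316 in Ctcf-null libraries, against 6189 and 8682 in controls (log2 fold change -0.27, SE 0.06, adjusted p = 0.00679). The remaining loader subunits, Rfc1 and Rfc5, were at -0.05 and -0.09 and did not pass.

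All 3 subunits of replication protein A, which coats single-stranded DNA at the fork, fell in limma, against 10.1% of all genes. Rpa2, at chr4:132768332-132778752 on the plus strand, had 1437 and 2201 counts in Ctcf-null libraries, against 1863 and 2782 in controls (log2 fold change -0.36, SE 0.07, adjusted p = 0.00261). Rpa3, at chr6:8255936-8259173 on the minus strand, had 936.9 and 1780 in Ctcf-null libraries, against 1276 and 2126 in controls (log2 fold change -0.35, SE 0.08, adjusted p = 0.00609). Rpa1, at chr11:75298166-75348324 on the minus strand, had 4221 and 3302 in Ctcf-null libraries, against 5404 and 3592 in controls (log2 fold change -0.24, SE 0.07, adjusted p = 0.0314). Rpa2 and Rpa3 also fell in edgeR and after centring, and Rpa1 did not. The flap endonuclease Fen1 had 80.6 and 219.9 counts in Ctcf-null libraries, against 110.3 and 223.9 in controls (log2 fold change -0.24, SE 0.16, adjusted p = 0.376), and the ligase Lig1 was at -0.07, so neither of the Okazaki fragment genes passed.

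In chromatin assembly and maintenance 3 of 4 genes fell in limma, against 10.1% of all genes. Only Chaf1b also fell in edgeR and after centring. Chaf1b, a subunit of the CAF-1 histone chaperone at chr16:93883901-93906115, had 616.6 and 1203 counts in Ctcf-null libraries, against 963.3 and 1548 in controls (log2 fold change -0.50, SE 0.09, adjusted p = 7.3e-04). Uhrf1, at chr17:56303321-56323486 on the plus strand, recruits the maintenance DNA methyltransferase and had 1527 and 2489 in Ctcf-null libraries, against 2109 and 2600 in controls (log2 fold change -0.26, SE 0.09, adjusted p = 0.0478). Most of its fall lay in pair 1, at -0.47, with -0.06 in pair 2. Slbp, at chr5:33634952-33652574 on the minus strand, binds the stem-loop of histone mRNAs and had 787.7 and 4809 in Ctcf-null libraries, against 865.4 and 6051 in controls (log2 fold change -0.23, SE 0.08, adjusted p = 0.0471). The other CAF-1 subunit in the list, Chaf1a, was at -0.33 and did not pass (SE 0.12, adjusted p = 0.0916). It was lower in both pairs, at -0.25 and -0.40, with a mean of 273.8 normalised counts.

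**Figure D2:**
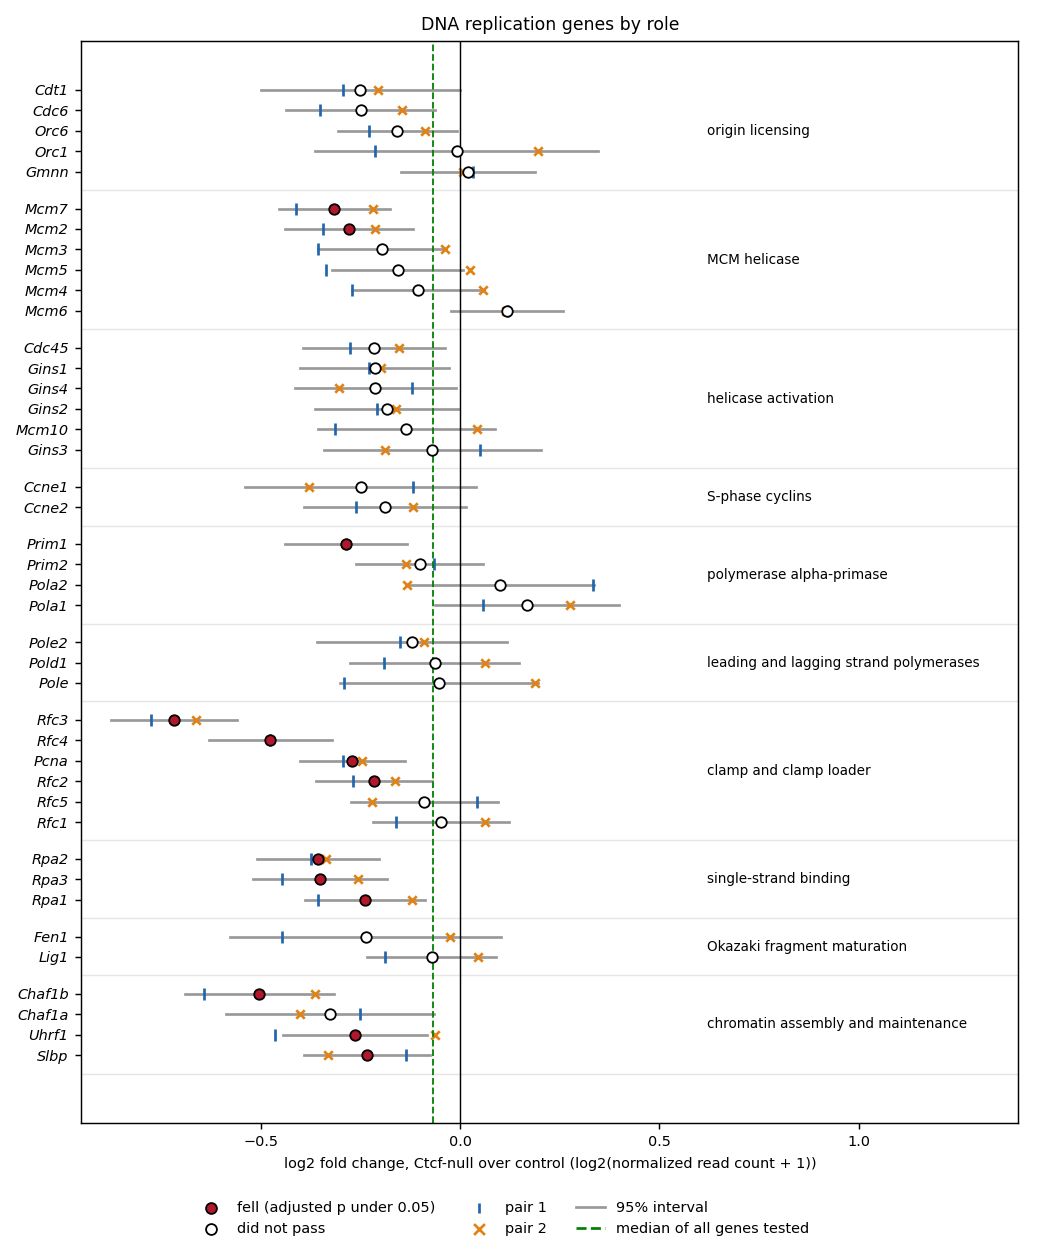
Log2 fold change of each of the 41 members, Ctcf-null over control, grouped by role. Points give the limma estimate with its 95% interval, filled where the adjusted p was under 0.05; bars and crosses give pair 1 and pair 2 alone and are hidden where both equal the estimate, and the dashed line is the median of all genes tested. Filled points are in the clamp and loader, single-strand binding, chromatin, MCM and primase groups, and all lie below 0.

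Levels per kilobase of exon ranged over the members from 2837 (Pcna), 1761 (Mcm7), 1347 (Rpa3), 1303 (Rfc4) and 1178 (Orc6) normalised counts per kilobase to 30.9 for Chaf1a, 37.2 for Orc1 and 42.6 for Pole. These levels are the mean of the 4 libraries. The order differed between pairs: in pair 1 Mcm5, at 1031 in the Ctcf-null library and 1303 in the control, stood above Rpa3, at 825 in the Ctcf-null library and 1124 in the control. In pair 2 Rpa3, at 1567 in the Ctcf-null library and 1872 in the control, stood below Pcna alone. The log2 fold change of the members had a Pearson r of 0.27 with the log of the merged length of all annotated exons. It had 0.05 with the GC content of the longest transcript and -0.22 with the log of their level. These are across 41 members that share the same libraries.

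The pairs differed from each other more than the genotypes did. In controls, the second library exceeded the first by 10.8-fold for Pold1, 8.14-fold for Cdt1, 7.89-fold for Gins4 and 6.99-fold for Slbp. In Ctcf-null libraries the same folds were 12.9, 8.67, 6.95 and 6.10. Pole, by contrast, was 0.530 times as high in the second Ctcf-null library as in the first, and 0.380 times in controls. The median absolute log2 difference between pairs was 0.68 for the members in controls, against a median absolute genotype difference of 0.21. The difference between the 2 controls exceeded the genotype difference for 39 of the 41 members. Over all genes the corresponding medians were 0.87 and 0.20. What the libraries of a pair share was not tested.

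**Figure D3:**
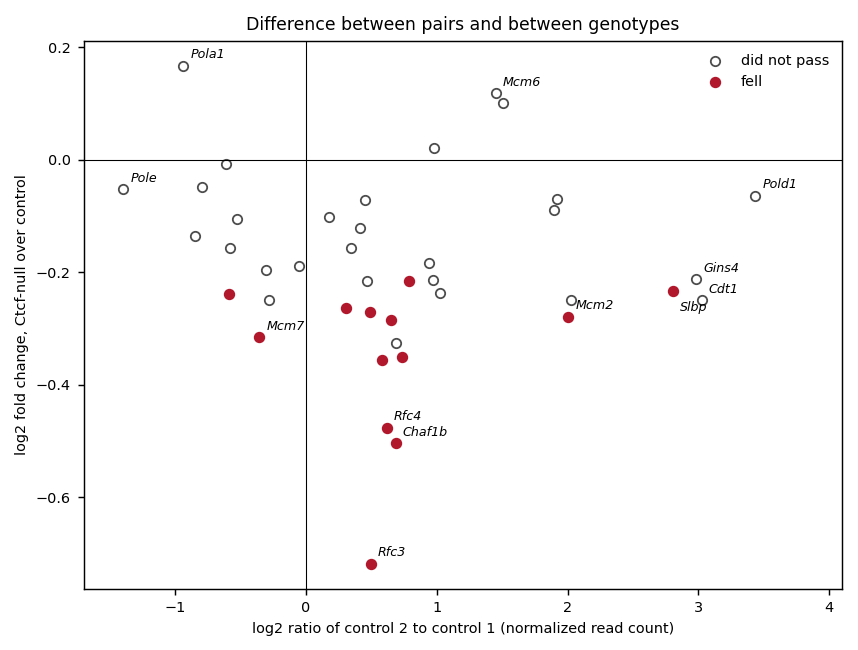
Log2 fold change of each of the 41 members, Ctcf-null over control (vertical axis), against its log2 ratio of the second to the first control library (horizontal axis), with filled points for members that fell. Members spread from -1.39 (Pole) to 3.42 (Pold1) along the horizontal axis and from -0.72 (Rfc3) to 0.17 (Pola1) along the vertical axis, and the 3 lowest, Rfc3, Chaf1b and Rfc4, lie at moderate differences between pairs.

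Counts of several members may include reads of other genes, since neither the sequencing strand nor the treatment of reads with several matches is stated. Exons of Rfc4 overlap those of Eif4a2 on the opposite strand by 194 bases, and Mcm7 exons overlap those of Ap4m1 by 321 bases. Eif4a2 averaged 18927 normalised counts, against 1997 for Rfc4, and Ap4m1 averaged 474.2, against 7793 for Mcm7. Cops6, which averaged 6838, overlaps Mcm7 exons by 64 bases on the opposite strand. Exons of Ccne2, Orc6 and Cdc45 overlap those of Ints8, Vps35 and Ufd1 by 609, 171 and 209 bases on opposite strands. Ints8, Vps35 and Ufd1 averaged 574.5, 6800 and 3614, against 605.7, 2909 and 1038 for the members. Rfc5, Orc1 and Lig1 also had opposite-strand overlaps. Exons of Chaf1a and Ubxn6, of Gins2 and Gse1 and of Rfc2 and Lat2 overlap by 4648, 2758 and 952 bases on opposite strands. Ubxn6 averaged 1935 normalised counts, against 273.8 for Chaf1a. Gse1 and Lat2 averaged 364.0 and 49.1, against 973.0 for Gins2 and 3359 for Rfc2. Fen1 shares 1909 bases of its 2.42 kb of exons with the antisense gene Gm10143, which averaged 50.1 normalised counts, against 158.7 for Fen1. Its exons also overlap those of Tmem258 on the opposite strand by 130 bases, and Tmem258 averaged 4226. A processed pseudogene, Pcna-ps2, is 99.2% identical to Pcna over 781 aligned bases. It averaged 1159 normalised counts over the 4 libraries, against 6809 for Pcna. Uhrf1 has a pseudogene, Gm5648, at 98.3% identity, and Mcm7 has Gm5487, at 97.7% identity over 2157 aligned bases. These counts are uncertain to that extent.

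Other replication genes, listed apart from the members, had a median log2 fold change of -0.17. In limma 11 of 52 fell (21.2%, against 10.1% of all genes) and 2 rose (against 3.69%). Asf1a, a histone chaperone, had 219.2 and 1527 counts in Ctcf-null libraries, against 288.2 and 2285 in controls (log2 fold change -0.49, adjusted p = 0.00165). Ticrr, which helps load Cdc45 at origins, rose, with 521.8 and 413.1 in Ctcf-null libraries, against 314.9 and 252.7 in controls (log2 fold change 0.72, adjusted p = 1.84e-04). Asf1b rose by 0.29, and topoisomerase Top2a fell by 0.25 on the log2 scale (adjusted p = 0.0208). In edgeR 5 of the 52 fell (9.62%, against 7.14% of all genes) and 2 rose (against 4.83%). After centring 1 fell (1.92%, against 4.64%). Genes at least as abundant as the lowest member gave higher shares, for this list and those below. Of these genes 16.5% fell in limma, 11.2% in edgeR and 7.32% after centring.

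Of 11 nucleotide supply genes, 3 fell in limma (27.3%, against 10.1% of all genes) and 1, Rrm2, in edgeR and after centring. Rrm2, the small subunit of ribonucleotide reductase, had 5701 and 5855 counts in Ctcf-null libraries, against 19224 and 12301 in controls. Its log2 fold change was -1.41 (SE 0.10, adjusted p = 9.33e-09), and both Ctcf-null values lay below both controls. Rrm1 and Dtymk fell by 0.25 and 0.23 in limma, with adjusted p of 0.0593 and 0.147 in edgeR. The list named for the E2F and RB family also holds Cdk4 and the Cdk inhibitors Cdkn1a and Cdkn1b. In this list 5 of 21 genes fell and 2 rose. E2f3 rose by 0.70 and Cdkn1a by 0.73 on the log2 scale, while E2f5 (-0.40) and E2f4 (-0.36) fell, as did Cdkn1b, Tfdp1 and Cdk4. The 5 that fell are 23.8% of the list, against 10.1% of all genes. In edgeR 3 of the 21 fell (14.3%, against 7.14% of all genes), and after centring 1 fell, E2f4 (4.76%, against 4.64%). E2f1, at -0.22, missed the threshold (adjusted p = 0.3). In the replication checkpoint list 1 of 8 fell, Rad9a, at -0.44 (12.5%, near the 10.1% of all genes).

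Of 22 mitosis genes, 13 fell (59.1%, against 10.1% of all genes) and 0 rose in limma, with a median of -0.29. The difference from the replication genes was not tested. Cdc20 (-0.42), Ccnb1 (-0.38) and Ube2c (-0.38) had the largest changes, and Mki67, a general proliferation marker, was at -0.18 (adjusted p = 0.132). In edgeR 8 of the 22 fell (36.4%, against 7.14% of all genes), and after centring 6 fell (27.3%, against 4.64%).

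**Figure D4:**
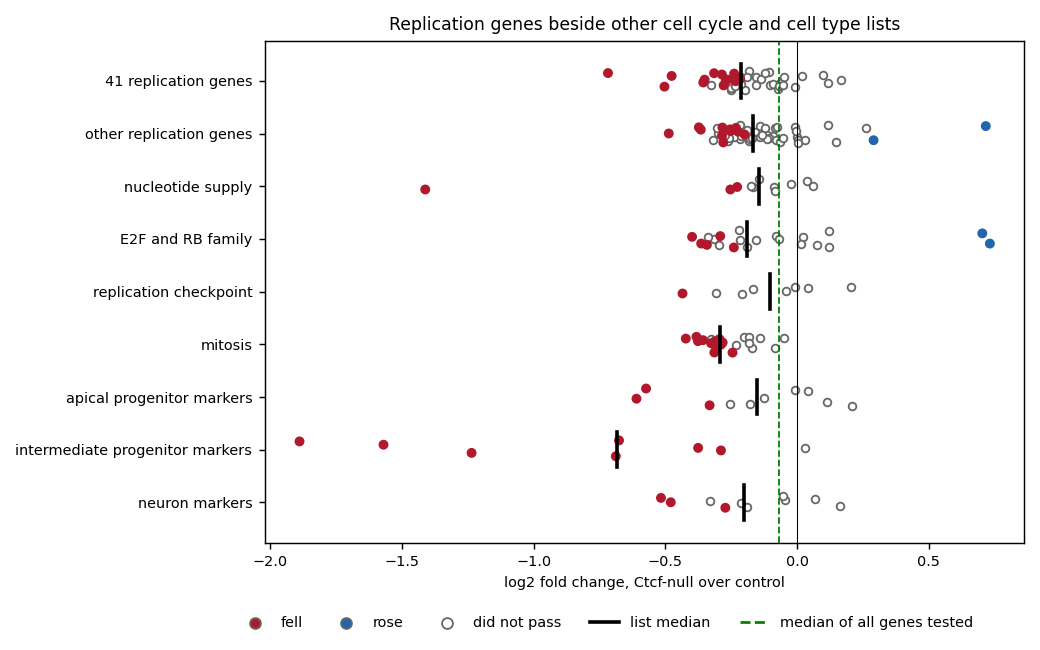
Log2 fold change, Ctcf-null over control, of each gene (points) in the 41 replication genes, 5 other cell cycle lists and 3 lists of progenitor and neuron markers, coloured by whether the gene fell, rose or did not pass. Black bars give the list medians and the dashed line the median of all genes tested; the median is -0.21 for the replication genes, -0.29 for mitosis genes and -0.68 for intermediate progenitor markers.

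Markers of the tissue and of its cell types are given as values that move beside these changes. The counts below are limma calls, where 10.1% of all genes fell and 3.69% rose. After centring, 4.64% of all genes fell, against 4 of 7 telencephalon and 5 of 8 intermediate progenitor markers. Of the apical progenitor and neuron markers, 2 of 10 each then fell and 1 of 10 each rose. The telencephalon markers were detected and 5 of 7 fell (median -0.45). Intermediate progenitor markers fell in 7 of 8 cases with a median of -0.68, and their summed level was 4401 and 13237 in Ctcf-null libraries, against 7342 and 22146 in controls. Apical progenitor markers fell in 3 of 10 (Fabp7, Hes5 and Notch1; median -0.15), with summed levels of 37891 and 63610 in Ctcf-null libraries, against 51675 and 77733 in controls. Neuron markers fell in 3 of 10 (median -0.20), with summed levels of 260536 and 211953 in Ctcf-null libraries, against 353272 and 259830 in controls. Summed levels of the members were 56728 and 83251 in Ctcf-null libraries, against 69867 and 93147 in controls. Choroid plexus markers rose in 2 of 7 (Ttr and Otx2; summed 96129 and 36287 in Ctcf-null libraries, against 73433 and 25180 in controls), and microglia markers rose in 1 of 9 (C1qb; median 0.28). Endothelial (median -0.29), erythroid (-0.23) and meningeal or pericyte markers (-0.02) had 0 calls of 6, 8 and 7. The erythroid median was -0.58 in pair 1, with 8 of 8 markers lower, and 0.13 in pair 2, with 1 of 8 lower. The summed erythroid level was 924910 and 626757 in Ctcf-null libraries, against 1344408 and 576057 in controls. Of the mitochondrially encoded genes 4 of 9 rose and 2 fell. No listed marker was at 0 in all 4 libraries. The part of these shifts in the changes of the replication genes was not tested.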

How the data were processed

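Telencephalon RNA of 2 Ctcf-null and 2 control libraries was made into Illumina libraries after Clontech SMART cDNA synthesis, per the labels' protocols. Reads were mapped with STAR 2.5.3 to mm10 and DESeq2 is named, per the submitters' processing notes. The deposited values are normalised read counts, and the signal of each library is a read count divided by a size factor by the authors. The authors' deposited table also holds log2 fold changes per pair and their average, which were not used for tests. In the 4 libraries, 1 read was worth 0.707 and 1.21 (Ctcf-null) and 0.889 and 1.25 (control), and at least 99.97% of nonzero values were whole reads within 0.005. The table had 0 columns of other samples.

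Genes were kept by edgeR's filterByExpr (21865 genes). The main test was limma 3.58.1 (trend) in R 4.3.3 on log2(normalised read count + 1), with the pair as a block and Benjamini-Hochberg adjustment over all genes at 0.05. A fold change on this scale understates the change of low genes. The block leaves 1 residual degree of freedom, with 17.4 prior degrees of freedom shared over genes. The pairing comes from the study's design text. As a check, the departures of each Ctcf-null library and its paired control from their own group mean had a correlation of 0.93 over genes. edgeR 4.0.16 (quasi-likelihood), DESeq2 1.42.0 and limma-voom on recovered reads were alternatives, as were other scalings, pseudocounts of 0.5 and 5, filters, no block and leaving out each library. Scripts were tested on simulated data.

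Members and lists were chosen with earlier results of these data known. Values are given for every member past the threshold, the member with the largest change in each role, and Mcm2 to Mcm7 with Pcna; in other lists, members past the threshold, at most the 3 largest in each, with Mki67, Top2a and E2f1 added. Further genes are named to account for small counts, after their values were seen. Promoters and exon coordinates come from RefSeq GRCm38.p6 and GENCODE M21 (mm10 is GRCm38).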

Additional observations from a re-analysis of the deposited data

How the results depend on the processing

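Without the block for the pair, limma and edgeR called 0 genes in either direction and 0 members; 171 genes in limma and 172 in edgeR had an unadjusted p under 0.05, none a member, and Ctcf at -3.81 and -3.89 no longer passed. With the block, genes called lower and higher numbered 1036 and 1325 with upper-quartile scaling, 545 and 290 with DESeq2, and 1015 lower after centring. Members called lower numbered 8 with edgeR TMM, 6 after centring, 4 with upper-quartile scaling and 3 with DESeq2, and 9 to 13 under the other settings with the block. The members' median was -0.10 with upper-quartile scaling and stayed below 0 under every setting with the block; the cause was not tested.

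Leaving out each library in turn had to be fitted without the block. Genes called lower were then 0 to 2 and genes called higher 0 to 0, members 0 to 0, and the median of the members -0.61 to 0.077, positive without the first Ctcf-null or the second control library. Ctcf lay between -4.50 and -3.13 and did not pass. The direction of these members turned with the library left out, with log2 fold changes of Cdt1 -1.80 to 1.30, Slbp -1.64 to 1.17, Ccne1 -1.26 to 0.76, Mcm2 -1.34 to 0.79, Mcm6 -0.61 to 0.84, Fen1 -0.96 to 0.48, Rpa3 -0.81 to 0.11, Rfc2 -0.66 to 0.23, Uhrf1 -0.62 to 0.088, Prim1 -0.61 to 0.038, Rpa1 -0.53 to 0.056, Cdc45 -0.51 to 0.077, Mcm5 -0.45 to 0.13, Mcm4 -0.37 to 0.16 and Pole2 -0.36 to 0.11. Such a fit sets libraries of different pairs against each other, and pairs differed more than genotypes did.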
